A study of Caenorhabditis elegans with 12 samples.

Results

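K06H6.2, K06H6.1, ZK218.5, ZK218.7 and ZK218.11, 5 genes of chromosome V, were counted almost entirely in 1 genotype of a Caenorhabditis elegans glia data set. K06H6.2 and K06H6.1 were found in che-2(e1033) larvae, and ZK218.5, ZK218.7 and ZK218.11 in wild type larvae. They are 5 of the 46726 rows of the deposited count table, of which 24373 had a count in any library. They were selected on their counts in che-2 against wild type libraries, so their levels in che-2 and wild type are given as a description with no test. The comparison of sorted cell fractions within a genotype, and the genotype comparison of the adjacent genes, were not part of the choice and were tested.

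The libraries came from 4 groups of 3. The che-2(e1033) animals (strain OS11549) and the wild type animals (strain OS4079) all carried dsRed driven by the F16F9.3 promoter, which labels the amphid sheath (AMsh) glia. Cultures were grown in liquid at 20 °C for 36 to 42 h after L1 arrest and harvested as L3 and L4 larvae, then dissociated and sorted into dsRed-positive cells (AMsh) and dsRed-negative cells (non-AMsh). The groups are therefore che-2 AMsh, che-2 non-AMsh, wild type AMsh and wild type non-AMsh, each with 1 library under each of the codes E30, E35 and E36. The mutant group is 1 strain with 1 allele and the wild type group is 1 strain, so the genotype and any other difference between the 2 strains cannot be told apart.

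AMsh glia wrap the endings of the amphid sensory neurons in the head, and the che-2 protein takes part in intraflagellar transport, which builds the cilia at those endings. The arms of C. elegans chromosome V hold many gene families that differ between strains and species, chemoreceptor and nuclear hormone receptor genes among them. No function of K06H6.2, K06H6.1, ZK218.5, ZK218.7 or ZK218.11 is given here, since none was annotated in the sources used.

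Library totals ranged from 15420762 to 26019499 counts, and 3 counts in a library correspond to 0.108 to 0.177 CPM, a count scaled to a fixed library total, here with TMM scaling (trimmed mean of M values). The libraries wild type AMsh E30 and che-2 AMsh E35 had a count for 14101 and 15711 genes, against 17555 to 19298 genes in the other 10. The che-2 gene itself was counted in both genotypes, with 6 to 223 counts in the che-2 libraries and 0 to 80 in the wild type libraries, so its counts do not check the genotype labels. The sort was checked with F16F9.3, which was 5.27 ± 0.69 (SE) higher on the log2 scale in che-2 AMsh than in che-2 non-AMsh cells (edgeR quasi-likelihood test, adjusted p = 0.00644) and 4.78 ± 0.67 higher in wild type AMsh than in wild type non-AMsh cells (adjusted p = 0.0102).

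K06H6.2 (WBGene00019450) lies at chromosome V 585778 to 587250 of WBcel235 on the plus strand, with 937 bases of exon in 6 segments. K06H6.1 (WBGene00019449) follows it on the same strand at 588135 to 589646, with 1074 bases in 9 segments, and 884 bases separate the pair. ZK218.5 (WBGene00013939) lies 16.51 megabases further along, at 17101132 to 17101982 on the plus strand, with 750 bases in 3 segments. ZK218.7 (WBGene00013941) is at 17105783 to 17106656 on the plus strand, with 780 bases in 3 segments, and ZK218.11 (WBGene00013943) at 17107530 to 17108418 on the minus strand, with 774 bases in 3 segments. The 3 ZK218 genes thus have the same number of exon segments and closely similar exon lengths, whereas the K06H6 pair differs in both. No other row of the table overlaps any of them except 1 piRNA on the opposite strand of K06H6.2, which had 0 counts. The sequences of the genes were not compared here, so reads shared with similar copies elsewhere cannot be told apart from their own.

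In the order E30, E35 and E36, K06H6.2 had 2288, 107 and 1997 counts in the che-2 AMsh libraries and 1555, 380 and 1409 in the che-2 non-AMsh libraries, against 0 in the 3 wild type AMsh libraries and 1, 0 and 1 in the wild type non-AMsh libraries. The lowest che-2 library, AMsh E35, was still far above the highest wild type library. As TMM-scaled CPM, the level was 60.1 ± 49.1 in che-2 AMsh and 59.5 ± 34.3 in che-2 non-AMsh cells (SD, n = 3 each). In the AMsh cells this was at least 1525-fold above wild type, with 3 counts over the group put in place of 0. In the non-AMsh cells the ratio of pooled levels was 2062 (95% counting interval 570 to 17030), on 2 wild type counts.

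K06H6.1 was the only one of the 5 with 0 counts in all 6 libraries of the other genotype. It had 803, 113 and 465 counts in che-2 AMsh E30, E35 and E36 and 485, 73 and 287 in che-2 non-AMsh, against 0 in each wild type library. Its level was 19.7 ± 14.9 CPM in che-2 AMsh and 15.3 ± 12.0 CPM in che-2 non-AMsh cells (SD, n = 3 each). The level in che-2 was at least 480-fold above wild type in AMsh cells and at least 347-fold in non-AMsh cells. Across the 24373 genes with a count, 5 genes (0.0205%) had a count in all 6 che-2 libraries and 0 in the 6 wild type libraries, the pattern that K06H6.1 was chosen to show.

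ZK218.5 was the most abundant of the 5. It had 0, 2 and 7 counts in che-2 AMsh E30, E35 and E36 and 0, 9 and 2 in che-2 non-AMsh, against 1438, 8676 and 3827 in wild type AMsh and 2896, 5594 and 4782 in wild type non-AMsh. No che-2 library came near any wild type library. The level averaged 0.122 ± 0.127 CPM in che-2 AMsh and 194 ± 150 CPM in wild type AMsh cells (SD, n = 3 each), and wild type was 1487-fold above che-2 on pooled counts (783 to 3252). In the non-AMsh fraction che-2 averaged 0.208 ± 0.283 CPM and wild type 195 ± 68.0 CPM (SD, n = 3 each), a ratio of 979 (547 to 1961).

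ZK218.7 had 0, 2 and 0 counts in che-2 AMsh E30, E35 and E36 and 0, 24 and 1 in che-2 non-AMsh, against 550, 2257 and 1152 in wild type AMsh and 538, 1147 and 631 in wild type non-AMsh. The 24 counts in che-2 non-AMsh E35 were the highest count of any of the 5 genes in a library of the genotype where it was otherwise missing. The level averaged 0.0375 ± 0.0649 CPM in che-2 AMsh and 55.2 ± 34.8 CPM in wild type AMsh cells (SD, n = 3 each), with a ratio of 1900 (526 to 15700) on 2 che-2 counts. In the non-AMsh fraction che-2 averaged 0.487 ± 0.804 CPM and wild type 34.5 ± 17.0 CPM (SD, n = 3 each), with a ratio of 75.1 (50.8 to 116).

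ZK218.11, on the opposite strand, had 0, 1 and 10 counts in che-2 AMsh E30, E35 and E36 and 0 in the 3 che-2 non-AMsh libraries. In wild type it had 1436, 6652 and 5200 counts in AMsh and 1275, 4485 and 1284 in non-AMsh. Its level averaged 0.139 ± 0.194 CPM in che-2 AMsh and 185 ± 108 CPM in wild type AMsh cells (SD, n = 3 each), a ratio of 1160 (648 to 2323). In non-AMsh cells wild type, at 107 ± 90.7 CPM (SD, n = 3), was at least 1904-fold above che-2. The E30 libraries of che-2 had no count of any of the 3 ZK218 genes.

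**Figure D1:**
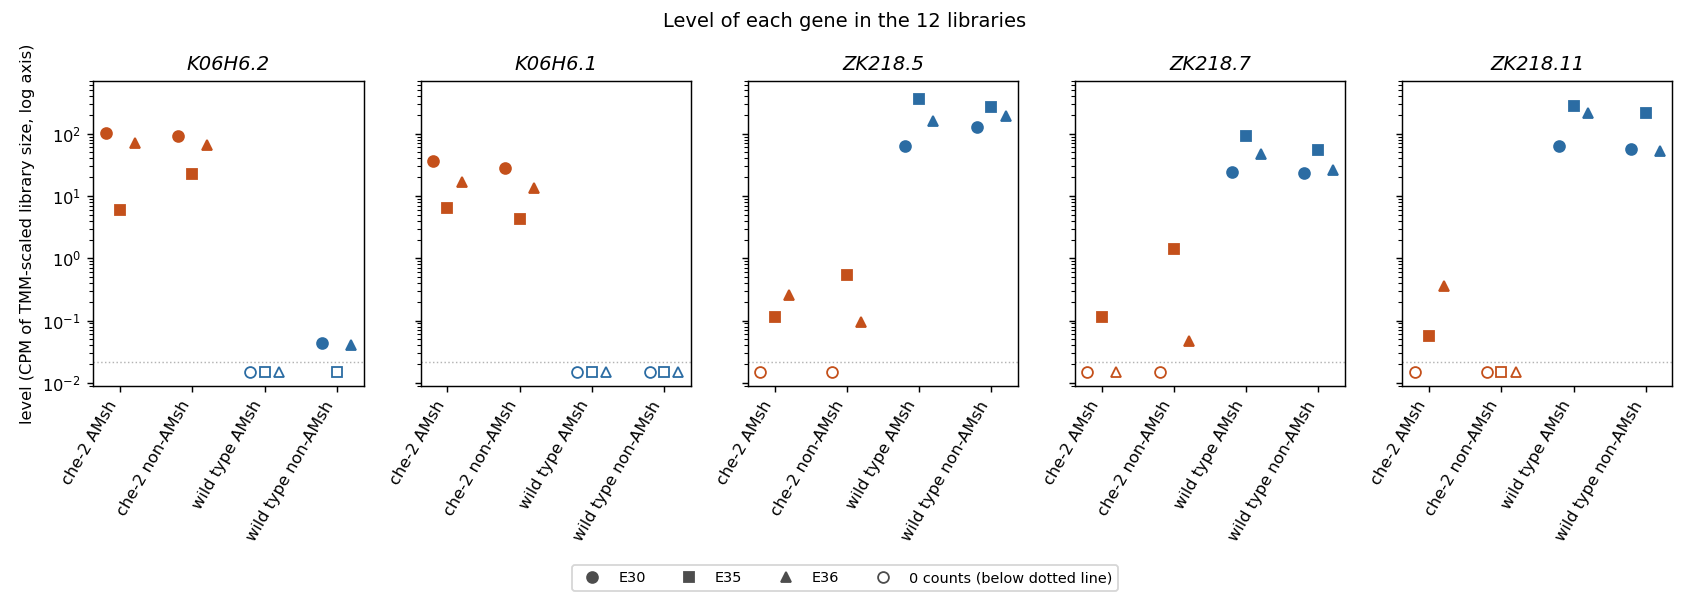
Level of each gene in the 12 libraries, as TMM-scaled CPM on a log axis, with che-2 groups left of wild type groups and the codes E30, E35 and E36 as circles, squares and triangles. Open symbols below the dotted line are libraries with 0 counts; for the K06H6 genes the che-2 libraries, and for the ZK218 genes the wild type libraries, lie far above all the others.

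All but 1 of the genes had a few counts in the other genotype, so complete absence held for K06H6.1 only. Allowing at most 1 count where absent added K06H6.2, and allowing up to 24 counts where absent, with at least 10 in each library where present, took in all 5. That limit was met by 72 genes of the whole table in the direction of che-2 and 129 in the direction of wild type, and it was chosen after the counts were seen. The counts in the genotype with the low level made up 0 to 0.0862% of the level in the other genotype for every gene and fraction except ZK218.5 in non-AMsh cells, at 0.102%, and ZK218.7 in non-AMsh cells, at 1.33%.

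The distance between the genotypes was also measured as the lowest level in a library of 1 genotype over the highest in a library of the other, with 3 counts in place of fewer. This measure was chosen after the values were seen. The K06H6 and ZK218 genes were selected on the same contrast of che-2 and wild type libraries, so their high ranks restate that selection. Over all rows, K06H6.2 came first in the direction of che-2 with a ratio of 42.6, and K06H6.1 had 30.4, with T05B4.10 at 34.1 between them. In the direction of wild type, spp-18 came first with 348, followed by ZK218.11 with 145 and ZK218.5 with 121, and ZK218.7 had rank 34 with 16.8. Among the 16690 genes with enough counts to be tested, every che-2 library lay above every wild type library for 621 (3.72%) and every wild type library above every che-2 library for 350 (2.1%). Ratios above 10 were found for 4 genes in the direction of che-2 and 55 in the direction of wild type.

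**Figure D2:**
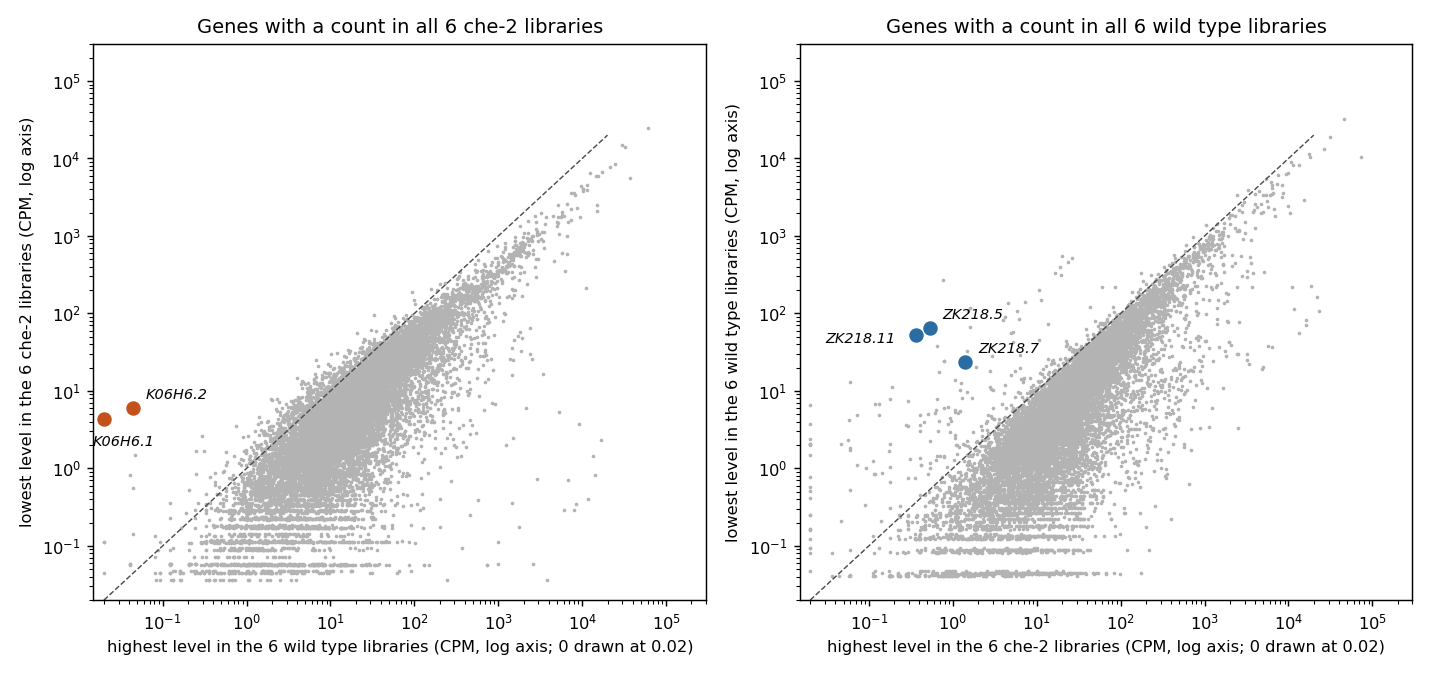
Lowest level in the 6 libraries of 1 genotype (vertical) against the highest level in the 6 libraries of the other (horizontal), both in TMM-scaled CPM on log axes, for genes with a count in all 6 che-2 libraries (left) or all 6 wild type libraries (right). Points above the dashed line of equality do not overlap between genotypes. The 5 named genes, selected on their counts in che-2 against wild type, lie far above that line.

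Where they were present, the 5 genes varied widely between the 3 cultures. K06H6.2 spanned 16.9-fold over the che-2 AMsh libraries and 4.03-fold over the che-2 non-AMsh libraries, and K06H6.1 spanned 5.63-fold and 6.54-fold. Culture E35 gave the lowest level of both K06H6 genes in both che-2 fractions. The che-2 AMsh E35 library had few detected genes, 15711, and the highest ribosomal RNA share of the 12 libraries, 6.265%. The che-2 non-AMsh E35 library had 18540 detected genes and 1.165%. The 3 ZK218 genes spanned 3.79-fold to 5.58-fold over the wild type AMsh libraries and 2.07-fold to 4.04-fold over the wild type non-AMsh libraries, and culture E35 gave the highest level of all 3 in both fractions. The E35 cultures of the 2 genotypes are separate cultures that share a code.

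The hypodermis markers dpy-7, rol-6, elt-3, dpy-4 and sqt-3 had their lowest che-2 sums in E35, as the K06H6 pair did. This was the only marker list lowest in E35 in both che-2 fractions, and it was picked out for that reason. Their summed level was 2209 CPM in che-2 AMsh E35 and 5391 CPM in che-2 non-AMsh E35, against 10970 to 19410 CPM in the other 4 che-2 libraries. Abundant markers weigh most in this sum: over the che-2 libraries dpy-4 ranged from 1533 to 10000 CPM and elt-3 from 3.04 to 13.7 CPM. In che-2 AMsh cells the sums of the AMsh glia, pharyngeal gland, body wall muscle, neuron, sperm and germ line markers were highest in E35. The intestine sum in E35 lay between those of E30 and E36. All 5 hypodermis markers were detected, their summed level was 6682 to 14330 CPM in the wild type libraries, and none was called between genotypes. In bulk libraries, fewer cells of a type and less RNA per cell cannot be told apart. The part of hypodermis cells in the K06H6 levels was not tested.

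Within a library the genes of a pair kept their order with few exceptions. Per kilobase of exon, K06H6.2 was 3.27 to 5.97 times K06H6.1 in 5 of the 6 che-2 libraries, and 1.09 times in che-2 AMsh E35. ZK218.5 was 2.72 to 7.88 times ZK218.7 per kilobase in the 6 wild type libraries, and ZK218.11 was 2.05 to 4.55 times ZK218.7. ZK218.5 and ZK218.11 did not keep an order, with a ratio of 0.759 in wild type AMsh E36 and of 3.84 in wild type non-AMsh E36.

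Levels were ranked on the same per-kilobase scale. In wild type AMsh cells ZK218.5 had 258 CPM per kilobase, rank 500 of the 16860 genes with a count in that group, and ZK218.11 had 239, rank 534. ZK218.7 had 70.7 in the same cells, close to the 64.1 of K06H6.2 in che-2 AMsh cells, where that gene had rank 1402 of 17079. K06H6.1 was the lowest of the 5 in AMsh cells, at 18.3 CPM per kilobase and rank 4127. ZK218.5 and ZK218.11 differed by less than the spread between their libraries (SD 200 and 140 CPM per kilobase, n = 3 each), as did ZK218.7 and K06H6.2 (SD 44.6 and 52.4).

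The sorted fractions were compared in the genotype where each gene was present, with edgeR's quasi-likelihood test on all 12 libraries and Benjamini-Hochberg adjustment over the 16690 genes tested. None of the 5 genes passed an adjusted p of 0.05, and all had an adjusted p of 1. In che-2, 99 genes (0.593%) passed, and in wild type 73 (0.437%), so that few genes of any kind did. In log2 units, AMsh minus non-AMsh, K06H6.2 differed by 0.01 ± 0.82 (SE, 95% interval -1.82 to 1.84) and K06H6.1 by 0.36 ± 0.83 (-1.55 to 2.27) in che-2.

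In wild type ZK218.5 differed by -0.01 ± 0.81 (-1.78 to 1.76), ZK218.7 by 0.68 ± 0.98 (-1.45 to 2.80) and ZK218.11 by 0.79 ± 0.83 (-1.04 to 2.63). The upper bounds of all 5 genes were below the lower bounds of F16F9.3, 3.78 in che-2 and 3.31 in wild type. The intervals are wide, and a difference of a few fold in either direction was not detectable with 3 cultures.

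The fractions were also set side by side within each culture. K06H6.1 was higher in AMsh than in non-AMsh cells in 3 of 3 che-2 cultures, by 1.27-fold, 1.48-fold and 1.25-fold in E30, E35 and E36. K06H6.2 was close to equal in E30 and E36, at 1.13 and 1.09 times the non-AMsh level, and in E35 the AMsh level was 0.269 times the non-AMsh level. ZK218.7 and ZK218.11 were higher in AMsh cells in 3 of 3 wild type cultures, by 1.03-fold to 1.87-fold for ZK218.7 and 1.14-fold to 4.14-fold for ZK218.11. ZK218.5 was higher in AMsh cells in 1 of 3.

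**Figure D3:**
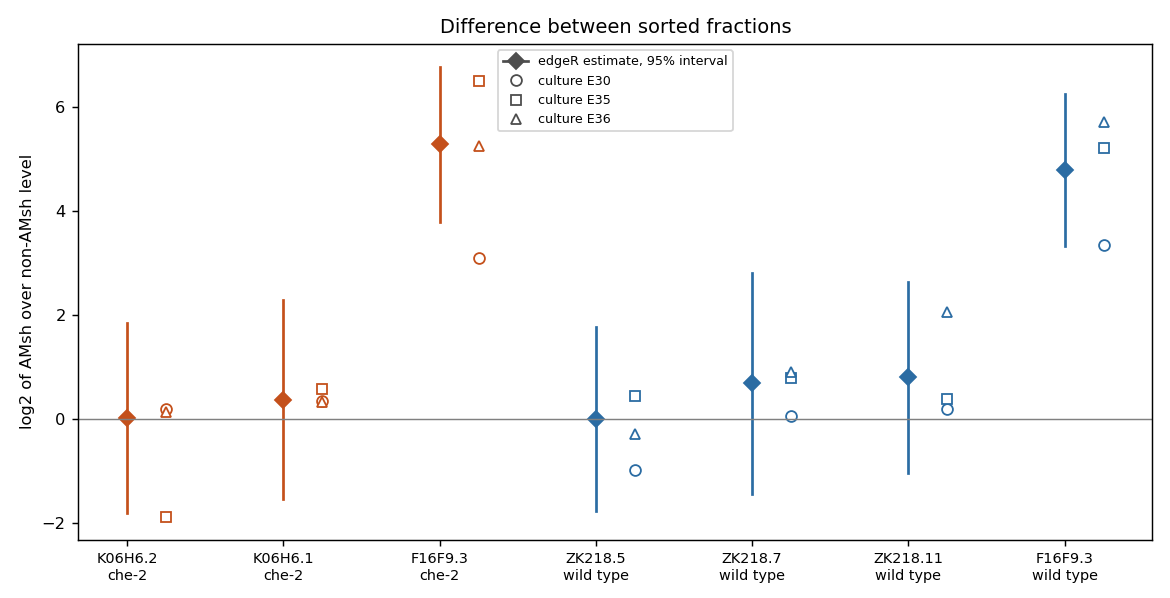
Difference between AMsh and non-AMsh cells, as log2 of the ratio of levels, for the 5 genes in the genotype where they were present and for the reporter gene F16F9.3 in both. Diamonds and lines are the edgeR estimate with its 95% interval and open symbols the 3 cultures; the 5 genes lie around 0 and F16F9.3 well above it.

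The counted genes nearest the K06H6 pair, K06H6.4, nstp-7 and ZK488.6, had few counts, most of them in che-2. K06H6.4, 2 protein-coding genes upstream, had 90, 0 and 13 counts in che-2 AMsh E30, E35 and E36 and 79, 26 and 26 in che-2 non-AMsh, against 1 count in all wild type libraries together. nstp-7 (K06H6.3), named as a member of the nucleotide sugar transporter family, had 121, 0 and 13 counts in che-2 AMsh and 114, 19 and 7 in che-2 non-AMsh, against 0 in wild type. Both had 0 counts in che-2 AMsh E35, a library with few detected genes, where the K06H6 pair was also low.

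ZK488.6, the next gene downstream after 835 bases, had 103, 3 and 35 counts in che-2 AMsh and 95, 8 and 79 in che-2 non-AMsh, against 0 in wild type AMsh and 0, 0 and 17 in wild type non-AMsh. A pseudogene between nstp-7 and K06H6.2, on the minus strand, had 43 counts in che-2 and 0 in wild type. In AMsh cells che-2 was at least 35.8-fold above wild type for K06H6.4, at least 46.5-fold for nstp-7 and at least 49-fold for ZK488.6. The che-2 AMsh E30 library held 90 of 103, 121 of 134 and 103 of 141 of these che-2 counts. In non-AMsh cells the fold was 161.5 for K06H6.4 (28.5 to 6428, on 1 wild type count) and at least 57.5 for nstp-7. For ZK488.6 it was 13.2 (8.02 to 23.2), with all wild type counts in 1 library. The edgeR interval of this difference, in log2 units, was -0.41 to 7.93.

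None of the K06H6 neighbours passed the test between genotypes. Of the 10 nearest protein-coding genes, 4 had enough counts to be tested, and 0 of 4 were called in che-2 against wild type AMsh, where 77 of all genes (0.461%) were, or in the non-AMsh comparison, where 24 (0.144%) were. Unadjusted p was under 0.05 for K06H6.4, nstp-7 and ZK488.6 in AMsh cells (adjusted p = 0.199, 0.263 and 0.212, edgeR) and for K06H6.4 and nstp-7 in non-AMsh cells (adjusted p = 0.256 and 0.293). Over all genes it was under 0.05 for 2142 (12.8%) in AMsh and 1721 (10.3%) in non-AMsh cells. DESeq2 called all 3 in AMsh cells and K06H6.4 and nstp-7 in non-AMsh cells, with adjusted p of 0.00697 to 0.0283. Of all genes DESeq2 called 990 of 17540 (5.64%) in AMsh and 783 of 17078 (4.58%) in non-AMsh cells.

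ZK488.5, 795 bases beyond ZK488.6, was counted in both genotypes, with 191, 0 and 38 counts in che-2 AMsh and 70, 13 and 29 in che-2 non-AMsh, against 0, 14 and 52 in wild type AMsh and 13, 6 and 56 in wild type non-AMsh (log2 difference in AMsh cells 1.84 ± 1.74, SE, edgeR adjusted p = 0.708). Beyond ZK488.5, nhr-251 had 34 counts in che-2 and 19 in wild type. srlf-37, the next gene, went the opposite way from the K06H6 pair, with 8 counts in che-2 and 284 in wild type. In non-AMsh cells wild type was 27.2-fold above che-2 for srlf-37 (13.6 to 63.6), with 243 counts in wild type non-AMsh E30. Both had too few counts to be tested. Upstream of K06H6.4, K06H6.5 and C14C6.13 had no count in any library. Further upstream, past C14C6.2, which was counted in all 12 libraries, lie C14C6.8, C14C6.6 and C14C6.3, the nearest of them 26109 bases from K06H6.4. C14C6.3 had 1021 counts in 5 che-2 libraries and 0 in wild type. C14C6.6 and C14C6.8 had 1374 and 845 counts in che-2, against 31 and 57 in wild type.

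On the other side, 40 kb after the start of K06H6.2, F48G7.7 had 50 counts over the che-2 libraries and 15683 over the wild type libraries. These last genes were picked out after their values were seen.

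**Figure D4:**
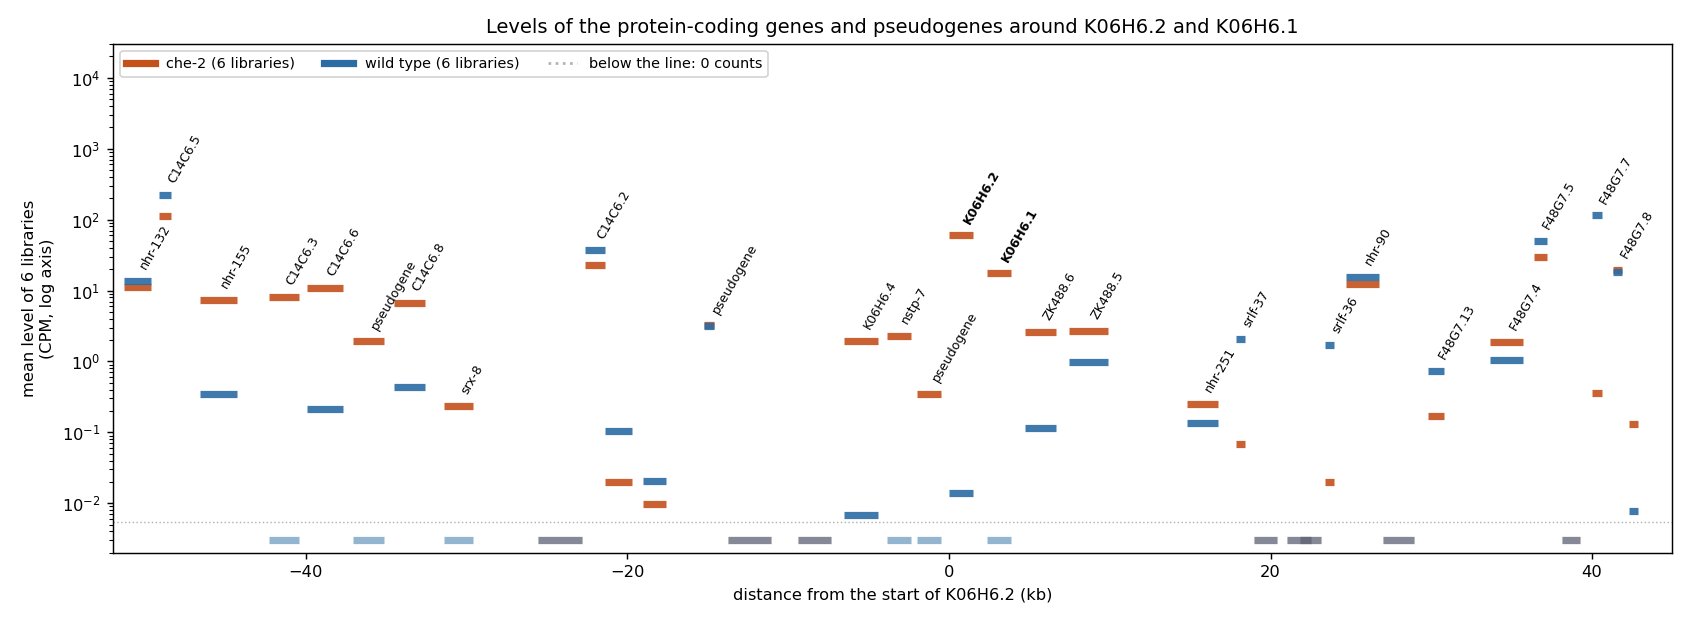
Mean level over the 6 che-2 and the 6 wild type libraries, in TMM-scaled CPM on a log axis, of the protein-coding genes and pseudogenes around the K06H6 pair, drawn at their distance from the start of K06H6.2. Bars below the dotted line mark 0 counts; the stretch from K06H6.4 to ZK488.6 lies higher in che-2, and C14C6.2 and nhr-90 on either side were counted in both genotypes.

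The neighbourhood of the ZK218 genes was mixed. ZK218.3, on the minus strand, had 0 counts in all 6 che-2 libraries, against 0, 112 and 189 counts in wild type AMsh E30, E35 and E36 and 58, 59 and 85 in wild type non-AMsh. Wild type was at least 96.3-fold above che-2 in AMsh cells (edgeR adjusted p = 0.175) and at least 54.6-fold in non-AMsh cells (adjusted p = 0.228). Without the wild type AMsh E30 library, ZK218.3 passed the threshold in both (edgeR adjusted p = 0.0422 and 0.0476). That library had few detected genes and was the only wild type library with 0 counts of ZK218.3. Over the alternatives run, its adjusted p ranged from 0.00108 to 0.373 in AMsh cells, with 3 of 18 called, and from 0.00512 to 0.643 in non-AMsh cells, with 3 of 19 called. nhr-248, a nuclear hormone receptor gene between ZK218.5 and ZK218.7, had 0 counts in che-2 and 41 in wild type, too few to be tested. A pseudogene after ZK218.11 had 0 counts in che-2 and 90 in wild type.

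ZK218.4, between ZK218.3 and ZK218.5, was counted in AMsh cells of both genotypes. It had 30, 182 and 147 counts in che-2 AMsh E30, E35 and E36 and 0 in che-2 non-AMsh, against 330, 63 and 68 in wild type AMsh and 0, 14 and 16 in wild type non-AMsh. It was thus counted mostly in AMsh cells: at least 97.9-fold above the non-AMsh cells in che-2 (edgeR adjusted p = 0.110) and 14.9-fold above them in wild type on pooled counts (10.3 to 22.3, adjusted p = 1). Neither difference passed the test. In AMsh cells the log2 difference of ZK218.4 between che-2 and wild type was -0.25 ± 1.22 (SE, edgeR adjusted p = 0.958). In non-AMsh cells it went the way of ZK218.3, with 0 counts in che-2 against 30 in wild type, which was at least 8.11-fold above che-2 (edgeR adjusted p = 0.288).

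T05E12.6, further upstream, was counted in all 12 libraries, with 670 to 2985 counts in che-2 AMsh against 91 to 1465 in wild type AMsh (log2 difference 1.07 ± 0.84, SE, edgeR adjusted p = 0.637). Of the context genes of this cluster, 7 had enough counts to be tested, and 0 of 7 were called between genotypes in either fraction, against 0.461% and 0.144% of all genes in AMsh and non-AMsh cells. Unadjusted p was under 0.05 for ZK218.3 in both fractions, for ZK218.4 in non-AMsh cells and for the pseudogene after ZK218.11 in AMsh cells, against 12.8% and 10.3% of all genes in AMsh and non-AMsh cells. DESeq2 called ZK218.3 in both fractions (adjusted p = 0.00108 and 0.00512) and ZK218.4 in non-AMsh cells (adjusted p = 0.0397), against 5.64% and 4.58% of all genes. Further on, 14 rows of 5S ribosomal RNA and 10 of spliced leader RNA form an array that begins 7484 bases after ZK218.11.

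**Figure D5:**
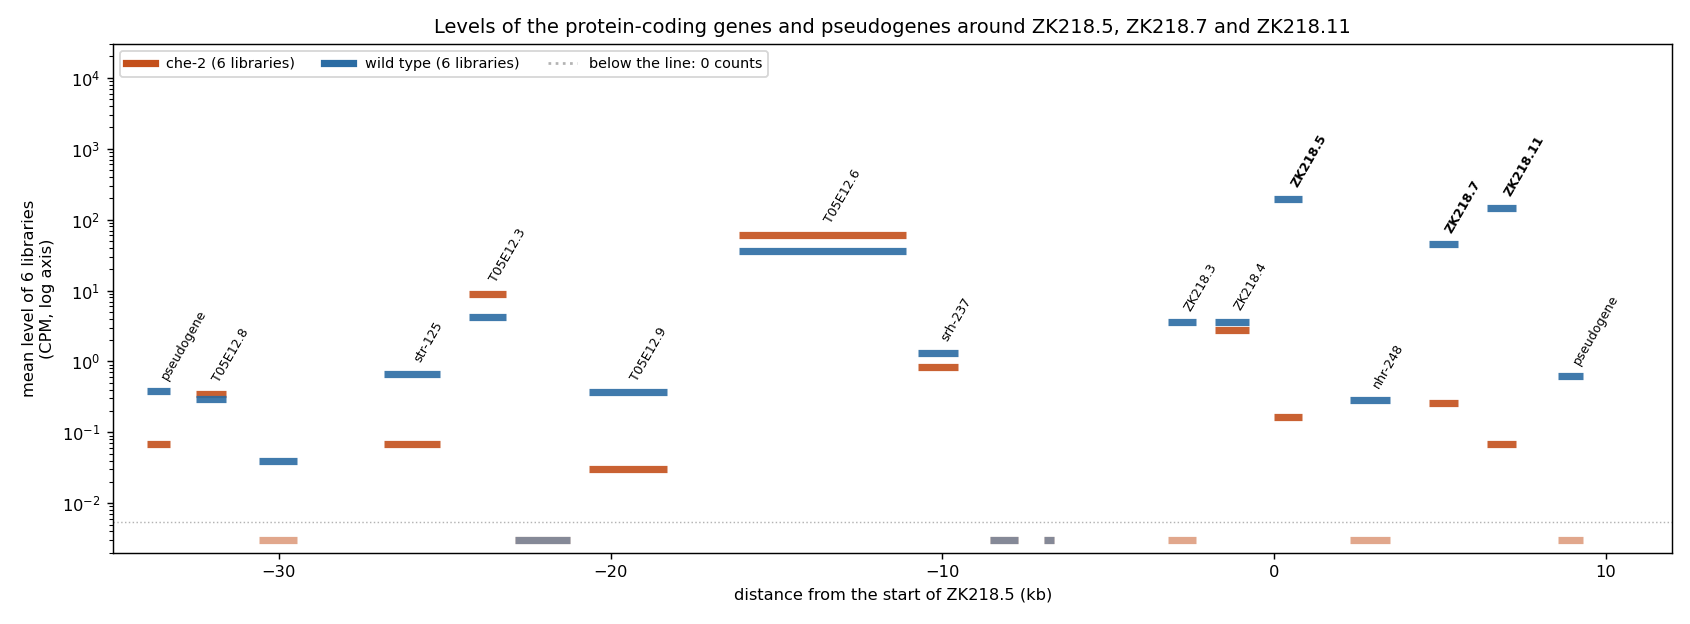
Mean level over the 6 che-2 and the 6 wild type libraries, in TMM-scaled CPM on a log axis, of the protein-coding genes and pseudogenes around the ZK218 genes, drawn at their distance from the start of ZK218.5. Bars below the dotted line mark 0 counts; ZK218.4, between ZK218.3 and ZK218.5, was counted in both genotypes.

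The genes with the most similar pattern were those with 0 counts in 1 genotype and the highest minimum level over the 6 libraries of the other. In che-2 only 4 such genes other than K06H6.1 were found, T05B4.10, scl-24 and 2 pseudogenes. T05B4.10, also on chromosome V, had 194, 200 and 399 counts in che-2 AMsh E30, E35 and E36 and 83, 192 and 137 in che-2 non-AMsh, a narrower range than the K06H6 pair, with no fall in E35. scl-24 had 483, 2 and 368 counts in che-2 AMsh and 248, 27 and 168 in che-2 non-AMsh, and was lowest in E35 in both fractions, as the K06H6 pair was.

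In wild type, 22 genes (0.0903%) had a count in all 6 libraries and 0 in che-2. The 5 highest were Y59A8B.19, Y59A8B.26, M6.11, F20E11.18 and grl-19. Y59A8B.19, Y59A8B.26 and F20E11.18 are on chromosome V as well, and Y59A8B.19 and Y59A8B.26 lie within 4 kb of each other. Their lowest levels were 2.08 to 6.60 CPM, below the lowest wild type levels of the ZK218 genes, 23.7 to 64.1 CPM. None of these 5 had an E35 library as its highest in both fractions.

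Marker genes of other cells were summed to show some of what else differed between the genotypes. The pharyngeal gland markers, 8 of 8 detected, summed to 174 to 211 CPM in the che-2 libraries and 50.3 to 139 CPM in the wild type libraries, without overlap, and 1 of the 8, phat-4, was called in AMsh cells (log2 difference 2.22 ± 0.40, SE, edgeR adjusted p = 0.0374). The sperm markers, 7 of 7 detected, summed to 217 to 1297 CPM in che-2 and 46.4 to 254 CPM in wild type, with overlap. Of the 7, 1 marker, comp-1, was called in AMsh cells (log2 difference 4.85 ± 0.91, SE, edgeR adjusted p = 0.0405). Neither list had a marker called in non-AMsh cells. Of all 16690 genes tested, 77 (0.461%) were called in AMsh cells. Every che-2 library lay above every wild type library for 621 (3.72%) of them. The summed intestine, hypodermis, body wall muscle, neuron and germ line markers, 5 of 5 detected in each, also overlapped between genotypes. The 5 AMsh glia markers, all detected, summed to 375 to 3071 CPM in che-2 AMsh and 78.7 to 97.2 CPM in che-2 non-AMsh cells, and to 839 to 3475 CPM in wild type AMsh and 114 to 150 CPM in wild type non-AMsh cells. The part of these cells in the levels of the 5 genes was not tested.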

How the data were processed

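RNA sequencing libraries of sorted cells were measured in 4 groups of 3. Per the submitters' processing notes, CASAVA 1.8.2, FastQC, STAR 2.3 and featureCounts were used with WBcel235. The table deposited by the authors holds whole-number read counts per gene with no normalisation, and the exon length in bases. The annotation release, the strand setting and the treatment of reads with several matches are not given in the sources used here. Positions and lengths are those of the table.

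The 5 genes, the marker lists and the rules for context genes were chosen with earlier results of these data known. The rule named the 5 genes, every K06H6 and ZK218 row, the 5 nearest protein-coding genes on each side of each cluster, and up to 5 genes a direction with the most similar pattern. Its part on related proteins, and the motif search in promoters, were not carried out, since no sequences were used here. Symbols were found for 43623 identifiers.

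Counts were fitted with edgeR 4.0.16 (quasi-likelihood test, TMM scaling, filterByExpr by the 4 groups; 16690 genes, 8 residual degrees of freedom) in R 4.3.3, and called at a Benjamini-Hochberg adjusted p under 0.05. The script was tested on simulated data. All 5 genes passed the filter, which their level in 1 genotype ensures. Intervals of ratios, "at least" folds (3 counts over a group) and floors treat reads summed over the libraries of a group as independent counts. They leave out the spread between libraries. The cDNA was amplified and carried no molecular identifiers, so the intervals can be too narrow even for counting error. The labels describe each culture as synchronised larvae and do not tie the cultures to separate days, so p-values measure the spread between these libraries. Both fractions of a culture were sorted from the same animals, and same-coded fractions deviated together (r = 0.159 to 0.503 in che-2 and 0.203 to 0.273 in wild type). The codes in titles and table headers were used to assign libraries, since the replicate numbers in the titles repeat. Alternatives were other scalings (RLE, upper quartile), other filters, blocks for culture or code, only the libraries compared, leaving out libraries, and DESeq2 1.42.0. Figures were drawn with matplotlib 3.10.9.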

Additional observations from a re-analysis of the deposited data

How the results depend on the processing

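The fraction differences of the 5 genes stayed uncalled under each alternative run, with adjusted p of 0.895 to 1. With culture as replicate block the log2 difference of K06H6.2 was -0.49, and the block changed no call of the 5 genes. The sign of K06H6.2 turned under 6 more settings (-0.028 with RLE, -0.028 with upper-quartile scaling and with DESeq2, -0.021 with no filter, -0.0099 with only the 6 libraries compared, -0.49 with code as block), and that of ZK218.5 under 5 (0.022 with RLE, 0.023 with DESeq2, 0.0071 with no filter, 0.026 with only the 6 libraries, 0.40 without wild type AMsh E30 and che-2 AMsh E35). Without those 2 libraries, ZK218.4 (0.29) and F40D4.13 (-1.63) also turned in the AMsh genotype comparison. Leaving out 1 library at a time gave -0.61 to 0.55 for K06H6.2, -0.40 to 1.14 for K06H6.1 and -0.81 to 0.40 for ZK218.5 between fractions. In the AMsh genotype comparison it gave -0.40 to 3.48 for ZK488.5, -0.45 to 5.40 for srh-237, -1.01 to 1.05 for ZK218.4 and -1.06 to 8.09 for F40D4.13, and for T05E12.6 in non-AMsh cells -0.077 to 0.86.

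Counts of called genes depended on the model. The che-2 fraction count, 99, was 0 with only the 6 libraries, 188 with DESeq2 and 0 to 127 with 1 library left out (0 when the one dropped was a che-2 non-AMsh library). The wild type one, 73, was 111 without the 2 libraries, 187 with DESeq2 and 0 to 91 with 1 left out (0 on dropping E35 or E36 of the wild type non-AMsh group). Genotype calls were counted in each direction. In AMsh cells, 27 genes higher and 50 lower in che-2 became 57 and 141 with no filter, 0 and 1 with only 6 libraries, 112 and 106 with code as replicate block, 6 and 20 without the 2 libraries, and 562 and 428 with DESeq2. Leaving out 1 library gave 0 to 36 higher and 0 to 76 lower, both 0 without che-2 AMsh E36. In non-AMsh cells, 6 higher and 18 lower became 3 and 11 with RLE, 90 and 119 with no filter, 1 and 10 with 6 libraries, 84 and 83 with the code block, 154 and 136 without the 2 libraries, and 450 and 333 with DESeq2. Leaving out 1 library gave 0 to 44 higher and 0 to 58 lower, both 0 without che-2 non-AMsh E30 or E36 or wild type non-AMsh E35. The codes are shared numbers across genotypes, although 10 of 12 libraries correlated best with their own code. The genes wholly absent from 1 genotype, 1 of 5, were 2 with at most 1 count allowed and 5 with at most 24 where absent and at least 10 where present, limits chosen after seeing the data. The cause of these shifts was not tested.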

Other observations

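The K06H6 stretch was 1 of 18 runs of at least 3 neighbouring protein-coding genes that were at least 8-fold higher in the same genotype over all 12 libraries with 0.05 CPM added to each mean level, among 16694 such genes with at least 30 counts. Of these runs 7 were higher in che-2 and 11 in wild type, and 10 lay on chromosome V. The share of the 16694 genes that lie on chromosome V is not given here, so the 10 cannot be judged against it. The run with the K06H6 pair held 5 genes, K06H6.4, nstp-7, K06H6.2, K06H6.1 and ZK488.6, with a median log2 ratio of 5.57, and 1 other run held 5. K06H6.2 and K06H6.1 were selected on their counts in che-2 against wild type. Their place in the run, and their weight in its median, follow from that selection. The ZK218 genes form no such run. ZK218.4 was counted in both genotypes, and nhr-248, with 0 counts in che-2 and 41 in wild type, went the same way as the ZK218 genes but was below 8-fold with the added 0.05 CPM. The fold limit of 8 was chosen after the values were seen, and no test was run on the number of runs.

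Within 60 kb of each cluster, genes were grouped by the prefix of their names. Around the K06H6 pair, 10 of 39 protein-coding genes had a prefix taken as that of chemoreceptor genes, and 6 that of nuclear hormone receptor genes. Around the ZK218 genes these were 8 and 1 of 26. At least 30 counts over the 12 libraries were found for 2 of the 10 and 3 of the 8 genes with a chemoreceptor prefix. The 2 around the K06H6 pair were srlf-37 and srlf-36. Whether srlf genes encode chemoreceptors was not checked.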
